A study of Mus musculus with 12 samples.

Results

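The genes described here encode proteins that fold the genome or tie it to the nuclear envelope: cohesin and its regulators, condensin, lamins and inner nuclear membrane proteins, the LINC complex, high-mobility-group (HMG) proteins and looping factors. The 41 members were chosen by name for these roles, with earlier results of these data known, out of 49997 genes counted. All 41 passed the low-count filter in every comparison. They were measured by RNA sequencing of poly(A) RNA from mouse thymocytes, sorted as CD4 or DP cells, in which the chromatin organiser gene Satb1 had been knocked out by tamoxifen induction (KO) or was wild type (WT). DP (double-positive) cells bear the co-receptors CD4 and CD8 together, and the CD4 stage, which follows, bears CD4 alone. The 4 groups, of 3 libraries each, were CD4 KO (Satb1 KO, tamoxifen), CD4 WT (WT, tamoxifen), DP KO (Satb1 KO, tamoxifen) and DP WT (WT, tamoxifen), so the control cells had received tamoxifen as well. The sources used here do not give the Cre driver, the deleted part of Satb1, the time after tamoxifen, the age of the mice or the sort gates. They also do not say if each library is its own mouse or a pool. Each p-value therefore sets a difference between groups only against the spread of the libraries compared, and some of that spread may be technical.

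Cohesin is a ring-shaped complex that extrudes chromatin loops, halts where CTCF is bound, and also holds sister chromatids together until cell division. Condensin, a related complex, compacts chromosomes for mitosis, and lamins with their membrane partners form the meshwork under the nuclear envelope to which silent chromatin is attached. SATB1 is an abundant nuclear protein of thymocytes that binds AT-rich DNA and takes part in the arrangement of chromatin loops, and several of these genes are also known to be transcribed most in dividing cells.

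Total counts ran from 22790504 (DP WT replicate 3) to 62422640 (CD4 KO replicate 2), and levels are given as CPM, the usual library-size-scaled read counts, on 1 scale across all 12 libraries. Satb1 itself (chr17:51736187-51833290, minus strand, mm10) had 1481, 1545 and 1469 CPM in CD4 KO, against 3513, 3299 and 3000 CPM in CD4 WT, and 2495, 2873 and 2455 CPM in DP KO, against 3888, 3832 and 3872 CPM in DP WT. Its transcript was lower in every KO library than in every WT library of the same stage, and a large part of it remained. Zbtb7b, a defining factor of CD4 cells, ranged from 20.04 to 41.5 CPM in CD4 KO and from 355 to 413 CPM in CD4 WT. The 7 CD4 marker genes summed to 1494 to 1563 CPM in CD4 KO, against 2639 to 2811 CPM in CD4 WT, with 4 of 7 lower, so these markers meet the CD4 label of the KO cells only in part. The 8 DP marker genes, Rag1 and Cd8a among them, summed to 2647 to 3233 CPM in CD4 KO, against 1477 to 1914 CPM in CD4 WT, with 6 of 8 higher and 1 lower. In DP KO they summed to 7351 to 7608 CPM, against 12349 to 13442 CPM in DP WT, with 7 of 8 lower and 1 higher. Cd4 is on both the CD4 and the DP list. The 5 CD8 lineage genes, of which Cd8a and Cd8b1 are also on the DP list, summed to 460.5 to 545 CPM in CD4 KO. Their CD4 WT sum was 234 to 362 CPM, and 1 of the 5 was higher in CD4 KO and 1 lower. In DP KO the CD8 sum was 2380 to 2385 CPM, against 3600 to 4308 CPM in DP WT, with 1 higher and 3 lower. The 5 marker genes of double-negative thymocytes, the stage before DP, summed to 289 to 448 CPM in CD4 KO, with 4 of 5 higher. Their CD4 WT sum was 66.5 to 74.2 CPM. In DP KO the double-negative sum was 513 to 665 CPM, against 116 to 215 CPM in DP WT, with 2 of 5 higher. Il2ra made up most of that sum in the KO libraries, and the part of any of these cells or transcripts in the results was not tested. Xist was at 0.845 and 0.273 CPM in DP WT replicates 1 and 2 and between 190 and 601 CPM in the other 10 libraries. DP WT replicates 1 and 2 thus differed in Xist from every DP KO library. Both also enter the comparison of CD4 WT with DP WT and the test of the KO effect in CD4 against that in DP. The mix of sexes may differ between DP WT and the other groups, and its part in any comparison with DP WT was not tested.

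The promoters of the members that rose most in CD4 KO are shown because many genes of cell division are known to carry a cell cycle homology region (CHR) close to their start. Of the 8 members with the largest change in CD4 KO, 6 have a promoter in the RefSeq-derived table (GRCm38.p6), and the 4 shown are those whose start there equals the start of the gene in the count table. Each line gives the 150 bases before the annotated start, 5′ to 3′ on the gene's strand, with matches to the CHR letters TTTGAA (either strand) in capitals.
Hmgb2: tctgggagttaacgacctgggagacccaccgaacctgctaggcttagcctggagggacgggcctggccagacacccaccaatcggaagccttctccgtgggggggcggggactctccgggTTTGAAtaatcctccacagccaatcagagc
Ncaph: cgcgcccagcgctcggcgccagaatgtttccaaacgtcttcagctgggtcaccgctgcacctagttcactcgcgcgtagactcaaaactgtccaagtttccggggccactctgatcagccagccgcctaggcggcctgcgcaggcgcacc
Cdca5: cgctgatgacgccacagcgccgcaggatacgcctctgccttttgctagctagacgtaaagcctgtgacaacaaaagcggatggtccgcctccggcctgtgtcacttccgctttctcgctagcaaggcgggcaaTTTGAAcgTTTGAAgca
Hmgb3: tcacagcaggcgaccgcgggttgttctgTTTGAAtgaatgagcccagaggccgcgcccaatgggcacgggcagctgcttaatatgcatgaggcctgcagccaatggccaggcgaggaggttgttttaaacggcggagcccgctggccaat
These stretches lie at chr8:57511693-57511842 (Hmgb2, plus strand), chr2:127133955-127134104 (Ncaph, minus), chr19:6084947-6085096 (Cdca5, plus) and chrX:71555767-71555916 (Hmgb3, plus). The match begins 30 bases before the start in Hmgb2, and 17 and 9 bases before it in Cdca5, which has a pair of matches. Hmgb3 has its match farther off, 122 bases before the start, and the letters do not occur in the Ncaph stretch. Ncapg and Ncapg2 have a match 30 and 18 bases before the RefSeq start. The count table starts them 34 and 85 bases farther upstream, so by that annotation both matches lie after the start.

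Of the 34 members with a promoter in that table, 11 (32.4%) had the CHR letters in this 150-base window of at least 1 RefSeq start, against 10.5% of all 27025 genes. Among them were 4 of 7 condensin genes and 9 of the 22 members that were higher in CD4 KO. Over the longer 300-base window, from 250 bases before the start to 50 bases from it, 14 of 34 members (41.2%) had a match, against 20.2% of all genes. The same window held a CCAAT box (CCAAT, either strand) in 19 of 34 members, or 55.9%, against 41.1% of all genes. An E2F-type site (TTTGGCGC or TTTCGCGC, either strand) was found in 2 of 34 members, or 5.88%, against 0.929% of all genes. In 19 of the 34 members a RefSeq start equals the count table's, and 6 of those 19 had a CHR match in the 150-base window. These matches describe letters only, and binding was not measured. Rad21, Stag2, Nipbl, Esco1, Esco2, Smc4 and Lmnb1 are not in the table.

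In CD4 thymocytes, Satb1 KO went with higher transcript levels of most of these genes: 26 of 41 rose and 6 fell, among them all 8 condensin genes and all 4 HMG genes on the higher side. Among all 17316 genes tested with edgeR at an adjusted p under 0.05, 20.9% were higher and 18.6% lower, or 39.5% in either direction. The median log2 fold change, KO over WT, was 0.34 over the members and 0.00 over all genes tested. In 34 of 41 members the CD4 KO and CD4 WT libraries did not overlap, against 51.9% of all genes tested. In these bulk libraries, more cells of a type and more RNA per cell cannot be told apart, and likewise fewer cells and less RNA. Leaving out each library in turn gave 23 to 26 higher and 4 to 6 lower. The DP marker sum, given above, was also higher in CD4 KO, and its part in these counts was not tested.

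DP thymocytes showed smaller changes, and more of them downward: 3 members rose (Smc4, Lmna and Syne2) and 9 fell (Ctcf, Nipbl, Ncapd2, Ncapd3, Ncaph2, Lbr, Sun2, Syne1 and Hmgb1). Among the 16776 genes tested, 16.7% were higher and 14.1% lower (30.8% in either direction), so the share of members higher (7.32%) was below that of all genes and the share lower (21.95%) somewhat above it. The members' median log2 fold change was -0.14, against 0.01 over all genes tested, and 14 of 41 members had no overlap between DP KO and DP WT, against 45.4% of all genes tested. The downward count rested on single libraries: it was 4 without each of DP KO replicate 1, DP KO replicate 2 and DP WT replicate 2, 5 without DP WT replicate 3, and 18 without DP KO replicate 3. DP KO replicate 2 was the lowest of its group for 32 of 41 members and DP KO replicate 3 the highest for 36. With DP WT replicate 3 as the only control, the DP WT library with Xist, 1 member stayed called in each direction (Smc4 higher, Syne1 lower), and the calls among all genes fell to 1089 higher and 818 lower.

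The KO effect in CD4 differed from that in DP in 25 members, by the interaction test over all 12 libraries: it was more positive in CD4 for 23 and more negative for 2, Lmna and Ldb1. Of 18431 genes tested, 14.4% were more positive and 13.4% more negative (27.8% in either direction), and the median difference was 0.44 over the members and 0.03 over all genes. Higher in CD4 KO and lower in DP KO were Ctcf, Ncapd2, Ncapd3, Ncaph2, Lbr and Hmgb1, while Lmna was lower in CD4 KO and higher in DP KO. Smc4 and Syne2 were higher in both stages, and Nipbl, Sun2 and Syne1 lower in both. The 9 members called in neither stage were Stag1, Stag2, Mau2, Wapl, Hdac8, Esco1, Lemd3, Sun1 and Yy1.

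**Figure D1:**
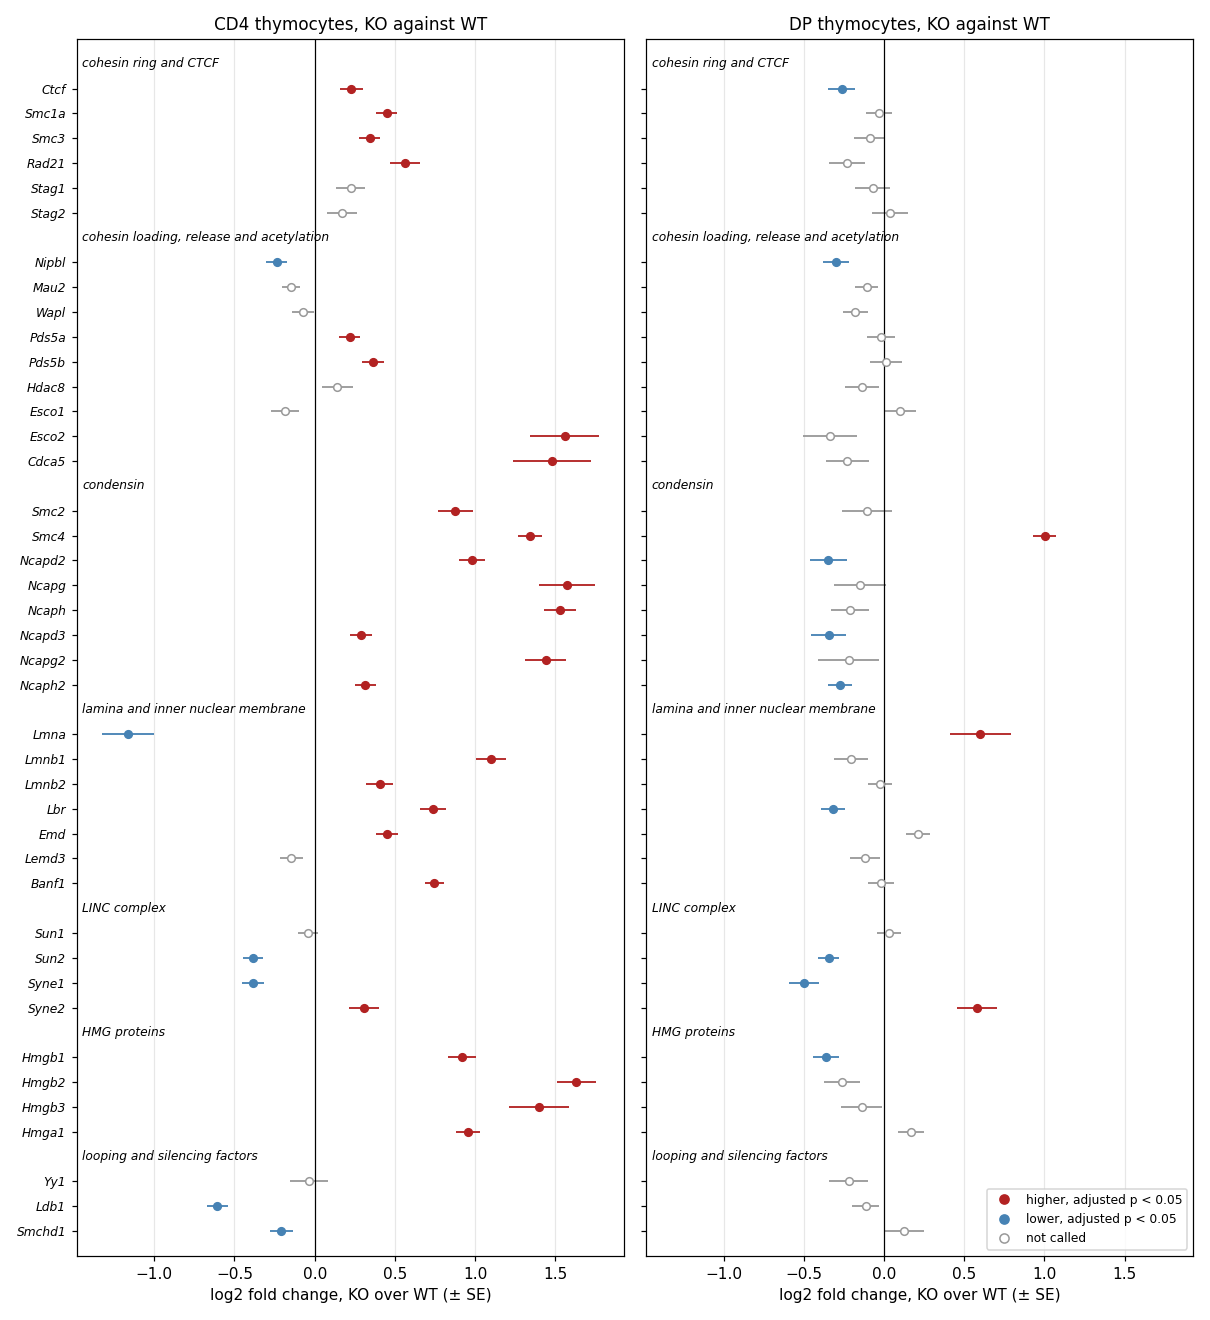
Log2 fold change, KO over WT, of each of the 41 members (points, with SE bars) in CD4 thymocytes (left) and DP thymocytes (right), grouped by role; filled red and blue points passed an adjusted p under 0.05 as higher and lower, open points did not. In CD4 all 8 condensin and all 4 HMG genes lie to the right of 0, whereas in DP Smc4, at 1.00, is the only condensin gene called higher.

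Transcripts of the cohesin ring itself changed modestly. CTCF, the DNA-binding protein at which loop extrusion halts, and the ring subunits Smc1a, Smc3 and Rad21 were each higher in CD4 KO, whereas the alternative STAG subunits Stag1 (log2 fold change 0.22, adjusted p = 0.0855) and Stag2 (0.17, adjusted p = 0.175) did not pass the test. Ctcf (chr8:105636474-105682922) had 303, 289 and 331 CPM in CD4 KO, against 261, 257 and 270 CPM in CD4 WT, giving a log2 change of 0.23 ± 0.07 (SE, adjusted p = 0.0276). It had 396, 371 and 452 CPM in DP KO, against 470, 499 and 508 CPM in DP WT, giving a log2 change of -0.26 ± 0.08 (adjusted p = 0.0385). The groups did not overlap in either stage, and the interaction was 0.50 ± 0.11 (adjusted p = 0.00378). The Ctcf calls were nevertheless close to the threshold. In CD4 the call was lost without CD4 KO replicate 1 or 3 or CD4 WT replicate 1 or 2 (adjusted p between 0.0523 and 0.0979). In DP it was lost without DP KO replicate 1 or 2 or any DP WT replicate (between 0.058 and 0.14). Transcripts of other annotated genes on the opposite strand cover 13.8% and 7.40% of the Ctcf exons.

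Smc1a (chrX:152016428-152061973), which with Smc3 forms the arms of the ring, had 320, 307 and 310 CPM in CD4 KO, against 232, 215 and 241 CPM in CD4 WT. All CD4 KO libraries lay above all CD4 WT libraries, and the log2 change was 0.45 ± 0.07 (adjusted p = 0.000593). In DP its libraries overlapped, at 362, 311 and 372 CPM in DP KO, against 346, 358 and 372 CPM in DP WT (adjusted p = 0.81). Rad21, the kleisin subunit that closes the ring, rose by 0.56 ± 0.09 on the log2 scale in CD4 KO, with 383 to 461 CPM in CD4 KO and 264 to 313 CPM in CD4 WT. Gm52217 on the opposite strand covers 13.0% of the Rad21 exons. Smc3 rose by 0.34 ± 0.06. With the replicate number as a block, Stag1 (adjusted p = 0.00739) and Stag2 (adjusted p = 0.0285) were also called higher in CD4 KO. Levels per kilobase here divide by all annotated exon bases of a gene (22149 for Stag1, 8165 for Stag2), not by the length of the transcripts present. The size of a ratio between genes therefore depends on the annotation. Per kilobase of exon, Stag1 stood at 0.158 to 0.164 of the level of Stag2 in CD4 KO and at 0.149 to 0.159 in CD4 WT, and the corresponding ratios were 0.154 to 0.159 in DP KO and 0.166 to 0.170 in DP WT. The balance of these alternative subunits thus varied little between groups, although in DP the KO and WT ratios did not overlap.

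Among the regulators of cohesin, the factors tied to DNA replication had the largest changes in CD4 KO, and those that load and release the ring had small ones. Esco2, which acetylates SMC3 in S phase so that sister chromatids stay joined, had 45.5, 37.2 and 53.1 CPM in CD4 KO, against 13.2, 11.9 and 21.4 CPM in CD4 WT, for a log2 change of 1.56 ± 0.22 (adjusted p = 0.000396). Cdca5, which encodes sororin, the protector of acetylated cohesin from release, had 38.6, 35.1 and 43.0 CPM in CD4 KO, against 13.9, 8.68 and 19.7 CPM in CD4 WT, giving a log2 change of 1.48 ± 0.24 (adjusted p = 0.0011). For both genes every CD4 KO library lay above every CD4 WT library. In DP, Esco2 had 63.5, 51.0 and 84.5 CPM in DP KO, against 74.7, 81.4 and 97.1 CPM in DP WT (log2 fold change -0.34 ± 0.17, adjusted p = 0.167). Cdca5 had 54.1, 44.6 and 66.3 CPM in DP KO, against 60.6, 63.9 and 70.4 CPM in DP WT (-0.23 ± 0.13, adjusted p = 0.229). The DP libraries overlapped for both, and with the replicate number as a block Esco2 was called lower in DP KO (adjusted p = 0.032). The interaction was 1.90 ± 0.31 for Esco2 and 1.72 ± 0.31 for Cdca5.

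Nipbl (chr15:8289824-8465315, minus strand), the loader that drives loop extrusion, was the cohesin regulator lower in both stages. It had 350, 325 and 343 CPM in CD4 KO, against 393, 417 and 392 CPM in CD4 WT, giving a log2 change of -0.24 ± 0.06 (adjusted p = 0.0158). The DP values were 376, 349 and 416 CPM in DP KO, against 447, 483 and 487 CPM in DP WT, for a log2 change of -0.30 ± 0.08 (adjusted p = 0.0188). No KO library reached the WT range of its stage. The CD4 call was lost without CD4 KO replicate 2 (adjusted p = 0.0842) or CD4 WT replicate 2 (0.0667). The DP call was lost without DP KO replicate 1 or 2 or DP WT replicate 2 or 3 (between 0.0509 and 0.0746). Mau2, the partner of NIPBL, had log2 fold changes of -0.15 (adjusted p = 0.0708) in CD4 and -0.11 (adjusted p = 0.293) in DP, and with the replicate number as a block it was called lower in CD4 KO (adjusted p = 0.048).

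The PDS5 proteins, which bind the ring and act both with the release factor WAPL and with sororin, were higher in CD4 KO, by 0.37 ± 0.07 on the log2 scale for Pds5b and 0.22 ± 0.06 for Pds5a. The Pds5a call was lost without CD4 WT replicate 1 (adjusted p = 0.0595) or replicate 2 (0.0881). Wapl itself, at -0.07 in CD4 (adjusted p = 0.446) and -0.18 in DP (adjusted p = 0.116), did not pass the test; another gene on the opposite strand covers 17.6% of its exons. Neither did Hdac8, the SMC3 deacetylase (0.14 in CD4, -0.14 in DP), or Esco1, the acetyltransferase that acts outside S phase (-0.19 in CD4, 0.10 in DP). With the replicate number as a block Esco1 was called lower in CD4 KO (adjusted p = 0.0417), a direction opposite to that of Esco2.

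All 8 condensin genes rose in CD4 KO (median log2 fold change 1.16), whereas in DP KO 1 rose and 3 fell. Smc4 (chr3:69004738-69034623), 1 of the 2 ATPase subunits that condensin I and II share, had 1557, 1497 and 1723 CPM in CD4 KO, against 622, 625 and 639 CPM in CD4 WT, giving a log2 change of 1.34 ± 0.07 (adjusted p = 2.63e-06). In DP cells the values were 1938, 1905 and 2159 CPM in DP KO, against 1004, 1010 and 1006 CPM in DP WT, giving a log2 change of 1.00 ± 0.07 (adjusted p = 8.3e-06). The KO libraries stood far above the WT libraries in both stages, and Smc4 was the member with the largest change in DP. It was called higher in both stages under every alternative run, with DP WT replicate 3 as the only control included. Within batches 1, 2 and 3 the difference was 1.32, 1.26 and 1.43 on the log2 scale in CD4 and 0.95, 0.91 and 1.10 in DP.

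Smc2, the other shared subunit, did not follow Smc4 in DP. It had 146 to 190 CPM in CD4 KO and 83.7 to 104 CPM in CD4 WT, for a log2 change of 0.88 ± 0.11, but 167 to 269 CPM in DP KO and 209 to 264 CPM in DP WT, where the libraries overlapped (-0.11 ± 0.16, adjusted p = 0.651). Per kilobase of exon, the level of Smc4 was 4.95, 5.40 and 4.78 times that of Smc2 in the CD4 KO libraries, against 3.79, 3.94 and 3.25 times in the CD4 WT libraries. In DP the ratio was 4.77, 6.003 and 4.23 in DP KO, against 2.53, 2.28 and 2.01 in DP WT. The KO ratios lay above the WT ratios in every library of both stages. The ratio is a description of 2 transcripts; exons of a microRNA gene, Mir16-2, cover 0.858% of the Smc4 exons on the same strand.

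The subunits particular to condensin I, which acts on chromosomes after the nuclear envelope has broken down, rose together in CD4 KO. Ncaph, its kleisin, had 92.8, 89.4 and 108 CPM in CD4 KO, against 33.5, 30.0 and 37.4 CPM in CD4 WT, giving a log2 change of 1.53 ± 0.10 (adjusted p = 5.98e-06). Ncapg, a HEAT-repeat subunit, had 65.8, 59.2 and 82.3 CPM in CD4 KO, against 22.6, 18.2 and 29.2 CPM in CD4 WT, giving a log2 change of 1.57 ± 0.17 (adjusted p = 0.000102); exons of Lcorl on the opposite strand cover 20.1% of its exons. Ncapd2, the other HEAT-repeat subunit, had 412, 383 and 430 CPM in CD4 KO, against 213, 189 and 220 CPM in CD4 WT, for a log2 change of 0.98 ± 0.08 (adjusted p = 1.75e-05). None of the CD4 KO libraries fell within the CD4 WT range for any of these genes. In DP, Ncaph (138, 118 and 171 CPM in DP KO, against 157, 176 and 166 CPM in DP WT) and Ncapg (94.0, 74.1 and 121 CPM in DP KO, against 92.6, 112 and 120 CPM in DP WT) overlapped between the groups. Ncapd2 had 578, 460 and 624 CPM in DP KO, against 640, 753 and 738 CPM in DP WT, without overlap and at a log2 change of -0.35 ± 0.12 (adjusted p = 0.0469). That call was lost without DP KO replicate 1 or 2 or DP WT replicate 2 or 3 (adjusted p between 0.0822 and 0.14).

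Condensin II, which is nuclear throughout the cell cycle, was uneven. Ncapg2 behaved like the condensin I subunits, with 107, 96.3 and 120 CPM in CD4 KO, against 40.1, 32.9 and 46.7 CPM in CD4 WT, giving a log2 change of 1.44 ± 0.13 (adjusted p = 2.85e-05). Its kleisin Ncaph2 had 179, 174 and 190 CPM in CD4 KO, against 147, 139 and 151 CPM in CD4 WT, and rose by 0.32 ± 0.06 (adjusted p = 0.00369). Ncapd3, its remaining HEAT-repeat subunit, had 132, 128 and 137 CPM in CD4 KO, against 104, 104 and 117 CPM in CD4 WT, and rose by 0.29 ± 0.07 (adjusted p = 0.0088). All 3 had CD4 KO libraries above all CD4 WT libraries, with the rise of Ncapg2 by far the larger. In DP, Ncapd3 was lower, with 171, 143 and 183 CPM in DP KO, against 186, 222 and 227 CPM in DP WT (-0.34 ± 0.11, adjusted p = 0.0387). Ncaph2 was lower too, with 217, 209 and 232 CPM in DP KO, against 271, 285 and 247 CPM in DP WT (-0.27 ± 0.08, adjusted p = 0.0224). Ncapg2 in DP spread widely, with 145, 98.7 and 175 CPM in DP KO, against 133, 172 and 187 CPM in DP WT (adjusted p = 0.431). The Ncapd3 call was lost without DP KO replicate 1 or 2 or DP WT replicate 2 or 3 (adjusted p between 0.0783 and 0.126), and the Ncaph2 call without DP KO replicate 1 or 2 or DP WT replicate 1 or 2 (between 0.0662 and 0.0964). Sco2 and Tymp, on the opposite strand, cover 25.0% and 24.9% of the Ncaph2 exons, so its reads are uncertain. The kleisins of the 2 complexes can be set side by side per kilobase: Ncaph stood at 0.643, 0.639 and 0.704 of the level of Ncaph2 in CD4 KO, against 0.282, 0.268 and 0.309 in CD4 WT, and at 0.791, 0.701 and 0.915 in DP KO, against 0.719, 0.769 and 0.834 in DP WT. The CD4 groups were separate and the DP groups overlapped.

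**Figure D2:**
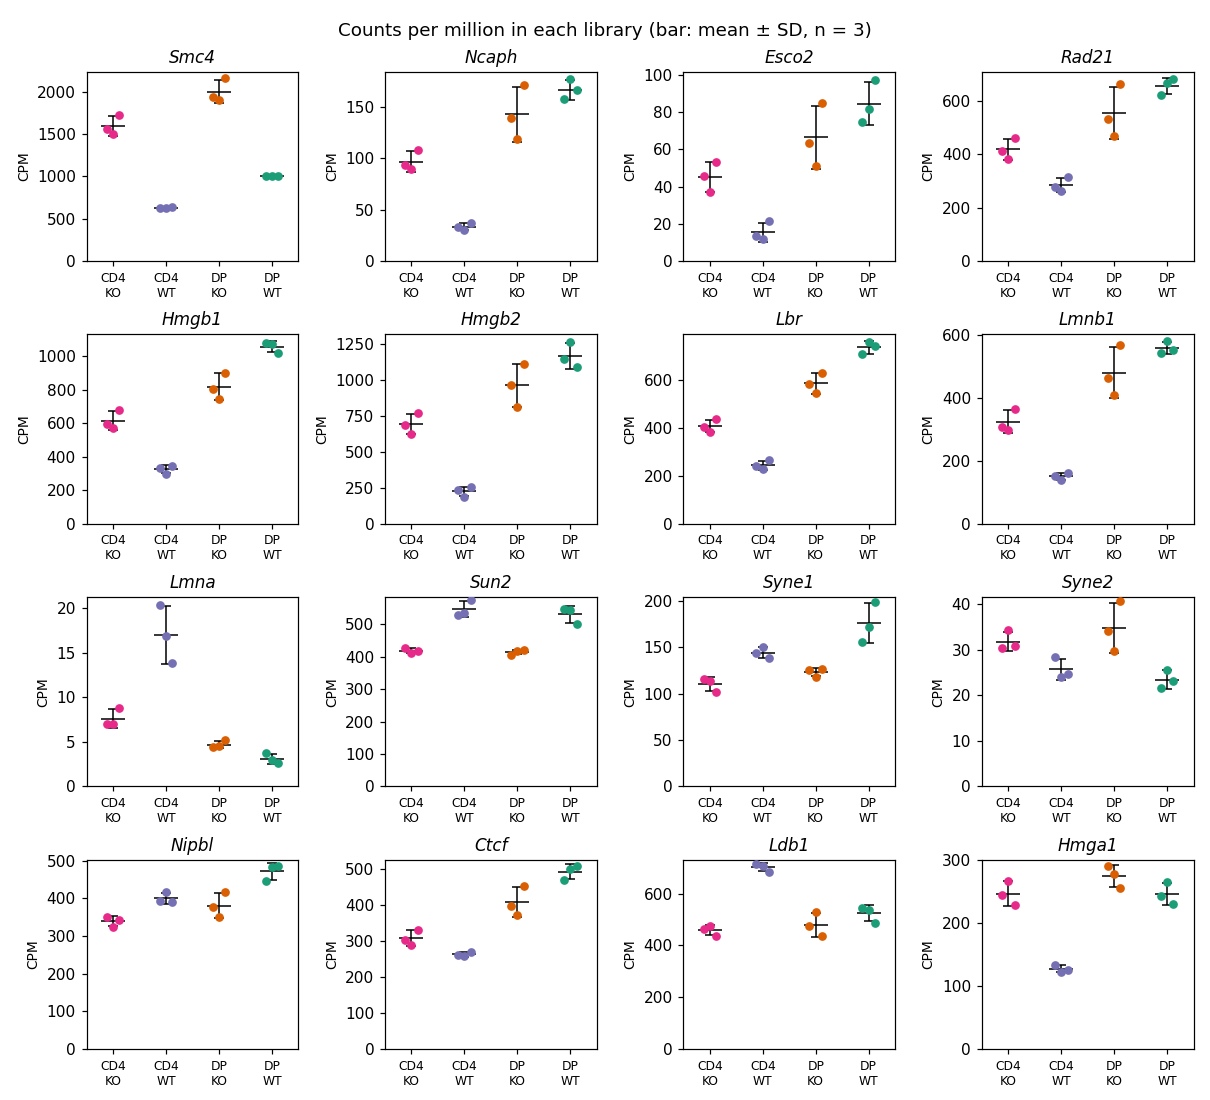
CPM of 16 members in each of the 12 libraries (points; horizontal bar and whiskers, mean ± SD, n = 3), with the groups in the order CD4 KO, CD4 WT, DP KO and DP WT, and every axis starting at 0. Smc4 lies above its WT libraries in both KO groups, Lmna is highest in CD4 WT, and Hmgb2 reaches 628 to 768 CPM in CD4 KO, above the CD4 WT libraries and below the DP libraries.

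The lamins moved in opposite directions. Lmna (chr3:88481148-88509932, minus strand), which encodes lamins A and C, was the member that fell most in CD4 KO: it had 6.997, 6.98 and 8.84 CPM in CD4 KO, against 20.3, 16.9 and 13.8 CPM in CD4 WT, giving a log2 change of -1.16 ± 0.16 (adjusted p = 0.00043). DP cells had 4.40, 4.49 and 5.17 CPM in DP KO, against 3.70, 2.98 and 2.59 CPM in DP WT, for a log2 change of 0.60 ± 0.19 (adjusted p = 0.038). The groups did not overlap in either stage, and the levels ran in the order CD4 WT, CD4 KO, DP KO, DP WT. The interaction was -1.75 ± 0.24 (adjusted p = 0.000138). The DP call is the less firm of the pair, since with the replicate number as a block its adjusted p was 0.0559, and it was lost without any 1 of the 3 DP KO replicates or without DP WT replicate 2 or 3 (between 0.0648 and 0.13). Within batches 1, 2 and 3 the DP difference was 0.25, 0.59 and 1.00 on the log2 scale, and the CD4 difference -1.54, -1.27 and -0.64.

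Lmnb1, a B-type lamin and, per kilobase, the most abundant lamin transcript in all 4 groups, had 297 to 366 CPM in CD4 KO and 140 to 162 CPM in CD4 WT, giving a log2 change of 1.10 ± 0.09 (adjusted p = 2.21e-05). Levels in DP were 410 to 568 CPM in DP KO and 544 to 580 CPM in DP WT, with overlap (-0.21 ± 0.11, adjusted p = 0.184). Lmnb2, the second B-type lamin gene, rose by 0.40 ± 0.09 in CD4 KO. Per kilobase of exon, the level of Lmna was 0.0182, 0.0190 and 0.0195 of that of Lmnb1 in CD4 KO, against 0.108, 0.0975 and 0.0687 in CD4 WT. The ratio in DP was 0.00764, 0.00883 and 0.00735 in DP KO, against 0.00548, 0.00414 and 0.00377 in DP WT. The A-type to B-type transcript balance was thus lower in every CD4 KO library than in any CD4 WT library, and higher in every DP KO library than in any DP WT library.

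Lbr (chr1:181815315-181842401, minus strand) encodes the lamin B receptor, a membrane protein that tethers heterochromatin to the nuclear edge. It had 405, 384 and 436 CPM in CD4 KO, against 239, 229 and 266 CPM in CD4 WT, giving a log2 change of 0.74 ± 0.08 (adjusted p = 8.62e-05). The DP values were 584, 545 and 629 CPM in DP KO, against 707, 759 and 744 CPM in DP WT, for a log2 change of -0.32 ± 0.07 (adjusted p = 0.00965). Both differences were free of overlap, in opposite directions, and the DP call was kept without any single library. Banf1, the barrier-to-autointegration factor that bridges DNA and LEM-domain proteins as the nucleus reforms, had 110, 107 and 113 CPM in CD4 KO, against 66.9, 63.2 and 67.2 CPM in CD4 WT, giving a log2 change of 0.75 ± 0.06 (adjusted p = 1.53e-05). Its DP libraries overlapped, at 135, 126 and 144 CPM in DP KO, against 136, 150 and 129 CPM in DP WT. Of its LEM-domain partners, Emd (emerin) rose by 0.45 ± 0.07 in CD4 KO, with 0.21 ± 0.07 in DP KO (adjusted p = 0.0579). Gm14686 on the same strand covers 27.3% of the Emd exons, so this gene is uncertain. Lemd3, the other LEM-domain gene, had -0.15 in CD4 (adjusted p = 0.142) and -0.12 in DP (adjusted p = 0.389).

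The LINC complex, which joins the lamina to the cytoskeleton through SUN proteins of the inner and nesprins of the outer nuclear membrane, had 3 called genes, each with the same direction in both stages, and for none of its 4 genes did the interaction pass the test in edgeR or in an alternative run (adjusted p between 0.269 and 0.839 in edgeR; 0 at an unadjusted p under 0.05). Sun2 (chr15:79724068-79742536, minus strand) had 426, 410 and 419 CPM in CD4 KO, against 529, 534 and 575 CPM in CD4 WT, giving a log2 change of -0.38 ± 0.06 (adjusted p = 0.00129). In DP cells the values were 406, 417 and 419 CPM in DP KO, against 546, 545 and 500 CPM in DP WT, for a log2 change of -0.35 ± 0.07 (adjusted p = 0.00347). The 6 KO libraries lay within a narrow band below all 6 WT libraries. Sun1, its paralogue, was at -0.04 in CD4 (adjusted p = 0.639) and 0.03 in DP (adjusted p = 0.805). Per kilobase, the Sun1 level was 0.113 to 0.125 of the Sun2 level in CD4 KO and 0.0912 to 0.100 in CD4 WT, and 0.101 to 0.106 in DP KO and 0.0744 to 0.0903 in DP WT.

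The giant nesprins diverged. Syne1 (chr10:5020192-5550692, minus strand) had 116, 113 and 102 CPM in CD4 KO, against 144, 150 and 138 CPM in CD4 WT, giving a log2 change of -0.38 ± 0.07 (adjusted p = 0.0019). DP cells had 126, 118 and 126 CPM in DP KO, against 156, 172 and 199 CPM in DP WT, giving a log2 change of -0.50 ± 0.09 (adjusted p = 0.0031). It was lower in every KO library of its stage, and the DP call was kept without any single library and with DP WT replicate 3 as the only control. Syne2 (chr12:75818318-76110928) went the other way, with 30.5, 34.3 and 30.8 CPM in CD4 KO, against 28.3, 24.1 and 24.8 CPM in CD4 WT, for a log2 change of 0.31 ± 0.09 (adjusted p = 0.0271). Levels in DP were 34.1, 29.7 and 40.6 CPM in DP KO, against 21.6, 25.7 and 23.1 CPM in DP WT, giving a log2 change of 0.58 ± 0.12 (adjusted p = 0.00676). Neither stage had overlapping groups. The CD4 call of Syne2 was lost without CD4 KO replicate 2 or CD4 WT replicate 2 or 3 (adjusted p between 0.0655 and 0.103). Per kilobase, Syne2 stood at 0.382, 0.438 and 0.437 of the Syne1 level in CD4 KO, against 0.285, 0.233 and 0.260 in CD4 WT, and at 0.393, 0.363 and 0.467 in DP KO, against 0.201, 0.216 and 0.168 in DP WT. The ratio was higher in all 6 KO libraries than in all 6 WT libraries.

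HMG proteins bend DNA or bind its minor groove, and all 4 of their genes rose in CD4 KO. Hmgb2 (chr8:57511843-57515999), which is known as an HMG-box protein of dividing cells and thymus, had the largest rise of any member: 691, 628 and 768 CPM in CD4 KO, against 234, 187 and 254 CPM in CD4 WT, giving a log2 change of 1.63 ± 0.12 (adjusted p = 1.09e-05). Hmgb1, its more widely expressed relative, had 595, 570 and 678 CPM in CD4 KO, against 332, 299 and 344 CPM in CD4 WT, for a log2 change of 0.92 ± 0.09 (adjusted p = 4.09e-05). Hmgb3, the X-linked member of the family, had 64.3, 57.7 and 87.8 CPM in CD4 KO, against 26.3, 20.9 and 32.7 CPM in CD4 WT, giving a log2 change of 1.40 ± 0.19 (adjusted p = 0.000318). In each case the CD4 KO libraries lay above the CD4 WT libraries. Hmga1, an AT-hook protein that shares with SATB1 a preference for AT-rich DNA, rose by 0.96 ± 0.08, with 228 to 267 CPM in CD4 KO and 122 to 133 CPM in CD4 WT; it is annotated on another sequence as well and has a near copy, Hmga1b, so its reads may be split.

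In DP only Hmgb1 of this family was called, as lower: it had 804, 744 and 901 CPM in DP KO, against 1077, 1071 and 1017 CPM in DP WT, giving a log2 change of -0.36 ± 0.08 (adjusted p = 0.00827). Hmgb2 had 967, 813 and 1115 CPM in DP KO, against 1146, 1264 and 1089.5 CPM in DP WT, with overlap (-0.26 ± 0.11, adjusted p = 0.108). Hmgb3, likewise overlapping, had 71.9, 70.2 and 101 CPM in DP KO, against 85.4, 90.2 and 94.1 CPM in DP WT (adjusted p = 0.461). Without DP KO replicate 3, the highest of its group for each of these 3 genes and the lowest for Hmga1, Hmgb2 (adjusted p = 0.0209) and Hmgb3 (0.0124) were also called lower, and Hmga1 was called higher (0.24 on the log2 scale, 0.043). Hmgb1 has 9 named pseudogenes in the table and Hmgb3 has 1, so some of their reads may be shared. Per kilobase, Hmgb2 stood at 1.35, 1.28 and 1.31 times the Hmgb1 level in CD4 KO, against 0.815, 0.725 and 0.856 times in CD4 WT. In DP the ratio was 1.39, 1.27 and 1.43 in DP KO, against 1.23, 1.37 and 1.24 in DP WT. The CD4 KO ratios thus lay in the range of the DP libraries and apart from CD4 WT.

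Of the looping and silencing factors, Ldb1 was the one with a clear change. Ldb1 (chr19:46031525-46048145, minus strand), an adaptor that dimerises to bring enhancers and promoters together, had 465, 476 and 438 CPM in CD4 KO, against 715, 705 and 684 CPM in CD4 WT, for a log2 change of -0.61 ± 0.06 (adjusted p = 7.95e-05). The DP values were 476, 528 and 437 CPM in DP KO, against 547, 538 and 488 CPM in DP WT, with overlap (-0.11 ± 0.09, adjusted p = 0.351). The interaction was -0.48 ± 0.11 (adjusted p = 0.00373), and CD4 WT stood above the other 3 groups. Smchd1, an SMC-hinge protein that maintains silencing of the inactive X chromosome, fell by 0.21 ± 0.07 on the log2 scale in CD4 KO (adjusted p = 0.0447). Its call was lost without CD4 KO replicate 1 or 2 or CD4 WT replicate 2 or 3 (adjusted p between 0.0813 and 0.16). Yy1, a zinc-finger factor found at promoter and enhancer contacts, had 223, 216 and 270 CPM in CD4 KO, against 217, 230 and 283 CPM in CD4 WT (adjusted p = 0.837). Its DP libraries overlapped as well, at 228, 222 and 302 CPM in DP KO, against 273, 281 and 329 CPM in DP WT (-0.22 ± 0.12, adjusted p = 0.214). With the replicate number as a block Yy1 was called lower in DP KO (adjusted p = 0.0482).

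The comparison of stages shows how these levels stand in the course from DP to CD4. In WT cells 32 of 41 members were lower in CD4 than in DP and 5 were higher (Lmna, Sun1, Esco1, Ldb1 and Smchd1), among 17369 genes tested of which 27.1% were lower and 27.9% higher (55% in either direction). The CD4 WT and DP WT libraries did not overlap for 36 of 41 members, against 62.7% of all genes tested. All 8 condensin, all 6 cohesin ring and CTCF and all 4 HMG genes were among those lower, with log2 differences, CD4 WT minus DP WT, down to -2.46 ± 0.20 for Esco2, -2.38 ± 0.11 for Hmgb2 and -2.31 ± 0.09 for Ncaph. Lmna was 2.44 ± 0.19 higher in CD4 WT. The Esco1 call was lost without DP WT replicate 2 (adjusted p = 0.0511). Nipbl lost its call without the low-count filter (0.0959) and without DP WT replicate 2 (0.056) or CD4 WT replicate 1 (0.0538). Syne1 lost its call without DP WT replicate 3 (0.059) or CD4 WT replicate 1 (0.0689) or 3 (0.0726). The Yy1 call, at an adjusted p of 0.0478 and with overlapping groups, was lost with DESeq2 size factors (0.0516), the stricter count filter (0.0501) and the joint model of the 12 libraries (0.103), and without DP WT replicate 2 or 3 or CD4 WT replicate 1 or 2 (between 0.0755 and 0.205). The members' median was -0.64, against 0.00 over all genes tested. This comparison holds DP WT replicates 1 and 2, which nearly lack Xist, and the part of that in it was not tested.

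In KO cells 11 of 41 members were lower in CD4 KO than in DP KO, and 2 were higher (Lmna and Sun1), among 16910 genes tested of which 7.82% were lower and 13.9% higher (21.7% in either direction). The members' median was -0.19, against 0.00 over all genes, and 19 of 41 members had no overlap between CD4 KO and DP KO, against 40.1% of all genes. The counts rest on few libraries. The count lower was 2 without DP KO replicate 1, 1 without CD4 KO replicate 1 or CD4 KO replicate 2, 6 without DP KO replicate 3 and 19 without DP KO replicate 2. With the replicate number as a block it was 23, and over all genes 2976 in place of 1323. The log2 difference, CD4 KO minus DP KO, was -0.45 ± 0.13 for Hmgb2, -0.54 ± 0.14 for Ncaph, -0.55 ± 0.13 for Lmnb1 and -0.50 ± 0.08 for Lbr, and 0.72 ± 0.15 for Lmna. The Lbr call was kept without any single library, and the Hmgb2 call was lost without DP KO replicate 1 or 3 or CD4 KO replicate 1 or 2 (adjusted p between 0.0571 and 0.105). Ncaph lost its call without DP KO replicate 1 or CD4 KO replicate 1 or 2 (between 0.0584 and 0.0876), Lmnb1 without CD4 KO replicate 1 (0.0737) or replicate 2 (0.0638), and Lmna without DP KO replicate 1 (0.0553). The Sun1 call was lost without any 1 of the 6 libraries (between 0.0509 and 0.102). The stage comparisons use the same libraries as the KO comparisons and are not independent of them, and the difference between the stage steps in KO and in WT is the interaction given above.

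**Figure D3:**
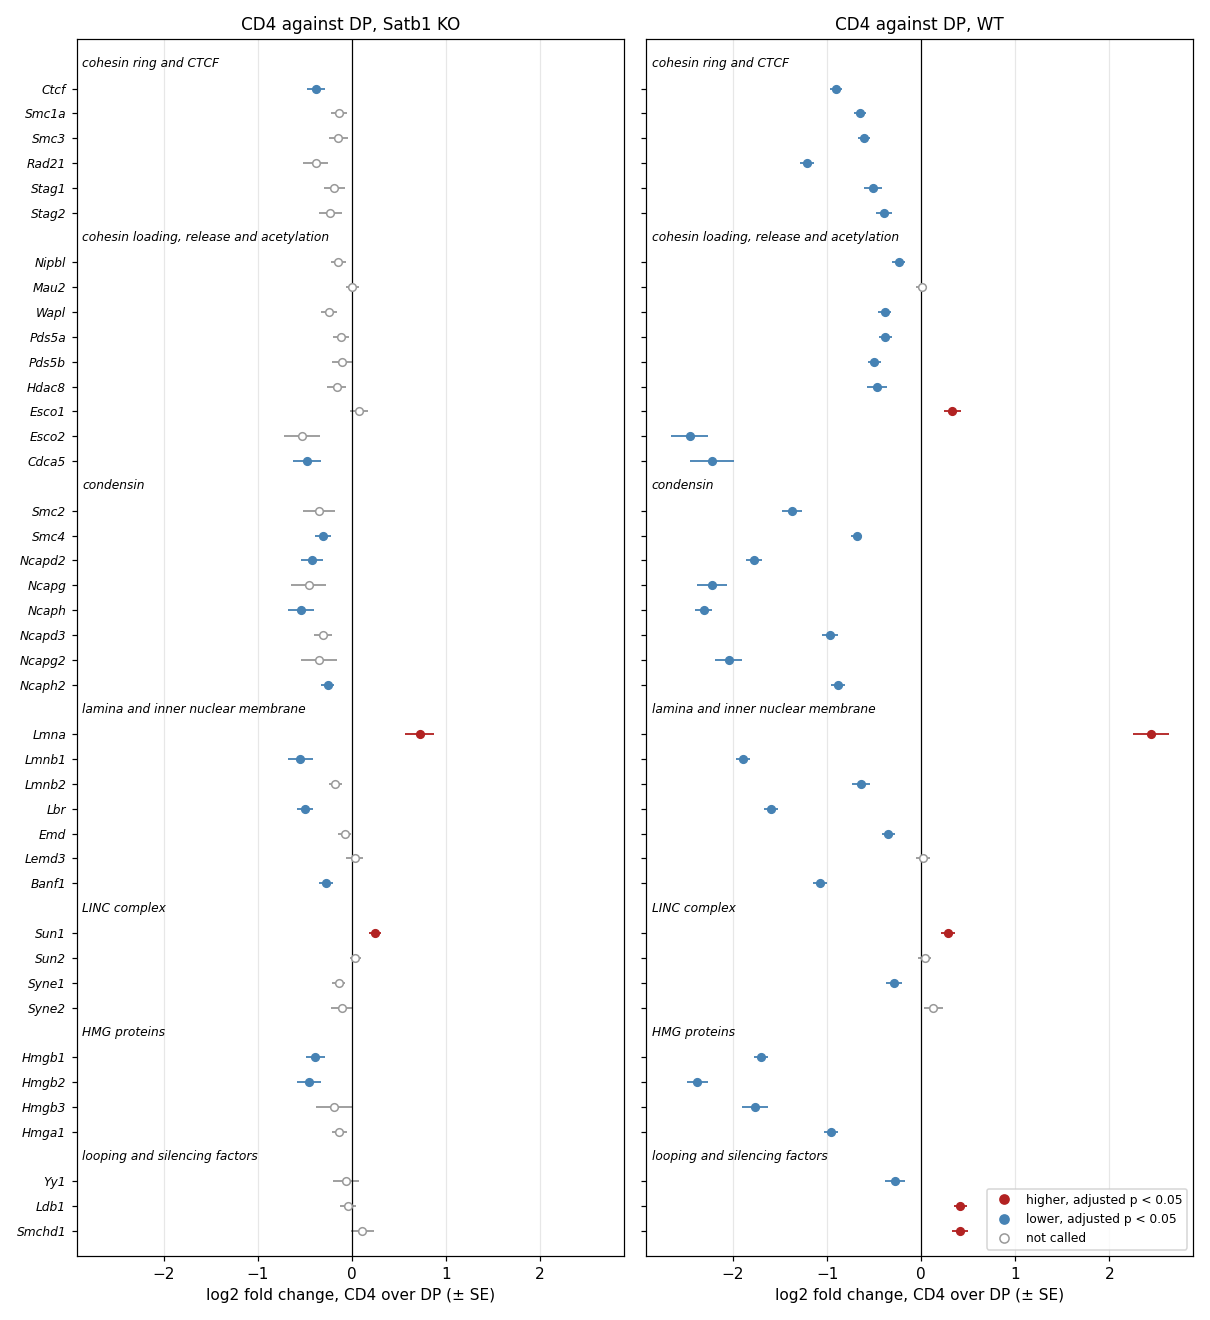
Log2 fold change, CD4 over DP, of each of the 41 members (points, with SE bars) in Satb1 KO cells (left) and in WT cells (right); filled red and blue points passed an adjusted p under 0.05 as higher and lower, open points did not. Points in the WT panel reach from -2.46 for Esco2 to 2.44 for Lmna, and those in the KO panel lie between -0.55 and 0.72.

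Transcripts of dividing cells were higher in CD4 KO, with both lists below called in full, against 20.9% of all genes tested. In DP KO 10% of the G2 and M phase list and 15% of the S phase list were called lower, against 14.1% of all genes. The list of 20 G2 and M phase genes summed to 3189, 2739 and 3634 CPM in CD4 KO, against 1099, 929 and 1233 CPM in CD4 WT, and all 20 genes were called higher in CD4 KO (median log2 fold change 1.58), Aurka (1.70 ± 0.11) and Ccnb1 (1.88 ± 0.13) among them. The 20 S phase genes summed to 3389, 3205 and 3571 CPM in CD4 KO, against 1608, 1357 and 1881 CPM in CD4 WT, and all 20 were higher too (median 1.28), with Uhrf1 and Cdc6 both at 1.51 ± 0.11. In DP the G2 and M phase sum was 4629, 3490 and 5935 CPM in DP KO, against 5072, 6016 and 6060 CPM in DP WT, with 2 of 20 genes lower and a median log2 fold change of -0.30. All 20 fold changes lay below 0, between -0.50 and -0.17. The S phase sum was 4033, 3355 and 4252 CPM in DP KO, against 4153, 4546 and 4376 CPM in DP WT, with 3 of 20 genes lower and a median of -0.13, beside -0.14 over the members and 0.01 over all genes tested. DP KO replicate 2 had the lowest and DP KO replicate 3 the highest of its group in both sums, the same libraries that were lowest and highest for most members. The part of the cell cycle transcripts in the members' differences was not tested.

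Set against these sums, the members fell into different patterns. Ncaph, Hmgb2 and Lmnb1 were low in CD4 WT, where the G2 and M phase sum was 929 to 1233 CPM, intermediate in CD4 KO and high in the DP libraries. Smc4 had 1905 to 2159 CPM in DP KO, where the sum was 3490 to 5935 CPM, against 1004 to 1010 CPM in DP WT, where it was 5072 to 6060 CPM. Sun2 had 529 to 575 CPM in CD4 WT and 500 to 546 CPM in DP WT (log2 difference 0.04, adjusted p = 0.659). The sum was 929 to 1233 CPM in CD4 WT and 5072 to 6060 CPM in DP WT. What part dividing cells have in any of these patterns was not tested.

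**Figure D4:**
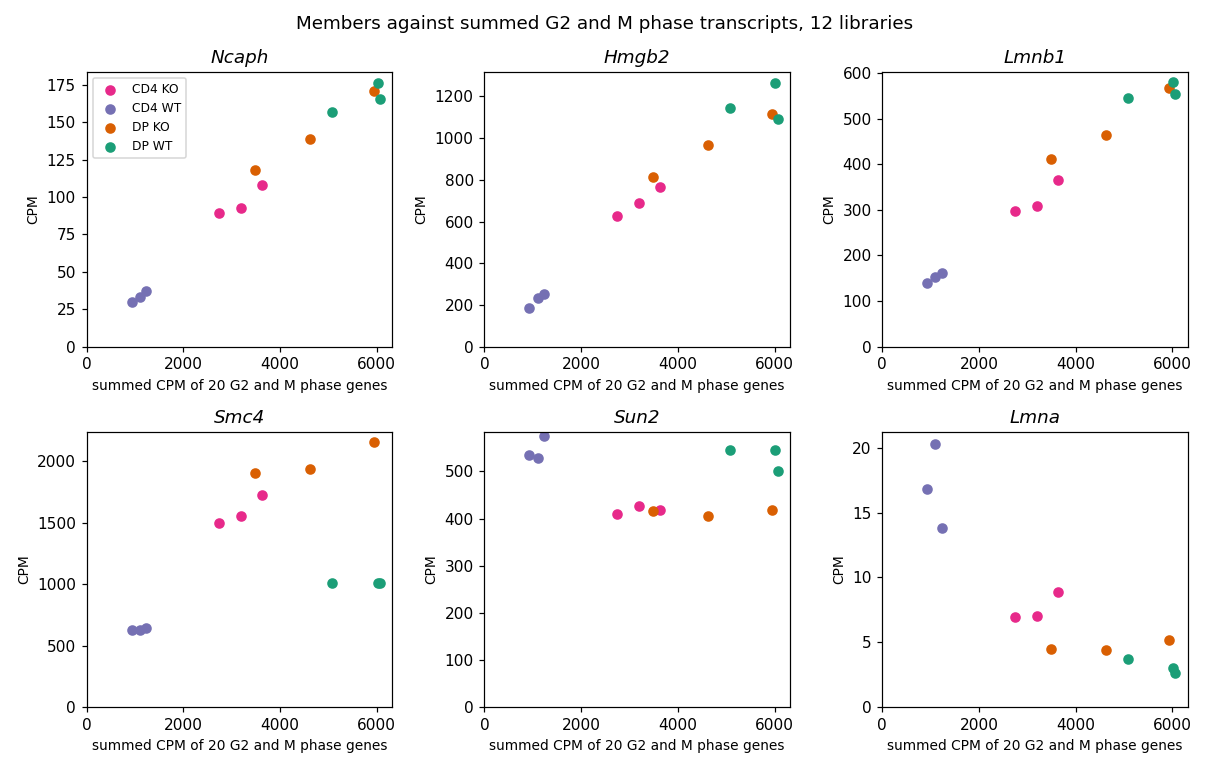
CPM of 6 members against the summed CPM of 20 G2 and M phase genes in each of the 12 libraries (points, coloured by group, both axes starting at 0). Ncaph, Hmgb2 and Lmnb1 are lowest in the CD4 WT libraries and highest in the DP libraries, Smc4 is highest in DP KO, Sun2 is lower in the 6 KO libraries than in the 6 WT libraries, and Lmna is highest in CD4 WT.

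Related genes outside the 41 were counted by role. Among all genes tested, 20.9% were higher and 18.6% lower in CD4 KO, and 16.7% higher and 14.1% lower in DP KO. Of 16 tested genes for other cohesin subunits, sister separation and the SMC5/6 complex, 8 rose and 4 fell in CD4 KO (median 0.36). In DP KO 3 of them fell (median -0.17). The share called was 75% in CD4 KO and 18.75% in DP KO, against 39.5% and 30.8% of all genes tested. Espl1, which encodes separase, the protease that cuts cohesin at anaphase, rose by 1.52 ± 0.08 in CD4 KO, and Sgo2a, a protector of centromeric cohesin, rose by 1.59 ± 0.15. Nsmce1, a subunit of SMC5/6, was lower in both stages, at -0.56 ± 0.07 in CD4 KO and -0.81 ± 0.09 in DP KO. Of 17 other nuclear envelope genes, 2 rose and 4 fell in CD4 KO (median -0.04), while 3 rose and 2 fell in DP KO (median 0.02). That is 35.3% called in CD4 KO and 29.4% in DP KO, close to the shares of all genes. Tmpo, which encodes the LAP2 proteins that bind lamins and chromatin, rose by 0.87 ± 0.12 in CD4 KO, and the nesprin gene Syne4 fell by 1.64 ± 0.20 there. Syne3, another nesprin gene, fell by 0.75 ± 0.10 in DP KO and Tor1aip1, which encodes the lamina-associated protein LAP1, rose by 0.63 ± 0.08 there.

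Of 17 tested genes for other architectural chromatin proteins, 9 were higher in CD4 KO (median 0.35), while 2 rose and 5 fell in DP KO (median -0.13). The share called was 52.9% in CD4 KO and 41.2% in DP KO, against 39.5% and 30.8% of all genes tested. The nucleosome-binding HMGN gene Hmgn3 had the largest change of that list in both stages, 1.61 ± 0.14 in CD4 KO and 2.24 ± 0.15 in DP KO. Top2b, a topoisomerase found at CTCF sites, was higher in both stages (0.50 ± 0.09 in CD4 KO and 0.52 ± 0.13 in DP KO). Cux1, a homeodomain protein with CUT domains like those of SATB1, rose by 1.24 ± 0.08 in CD4 KO and had 0.05 ± 0.08 in DP KO (adjusted p = 0.724).

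Per kilobase of exon, Hmgb2 and Hmgb1 had the highest levels of all members in CD4 KO, DP KO and DP WT, whereas in CD4 WT Sun2 (136 CPM per kb) and Ldb1 (103 CPM per kb) did. Hmgb2 averaged 252 CPM per kb in CD4 KO, against 81.6 CPM per kb in CD4 WT, and 350 CPM per kb in DP KO, against 423 CPM per kb in DP WT. Smc4 averaged 152 CPM per kb in CD4 KO, against 59.9 CPM per kb in CD4 WT, and 191 CPM per kb in DP KO, against 96.0 CPM per kb in DP WT. In both KO groups only Hmgb2 and Hmgb1 lay above it among the members. At the low end, Hdac8, Syne2 and Lmna lay under 5 CPM per kb in every group, as did Syne1 in all but DP WT, where it averaged 5.59 CPM per kb. These ranks depend on the annotated exon bases, which were 19000 for Hdac8 and 31479 for Syne1. The X-linked members Smc1a, Stag2, Hdac8, Emd and Hmgb3 were not called in DP KO, where 30.8% of all genes tested were called. Emd was called higher there with 1 model over all 12 libraries (adjusted p = 0.0332), and Hmgb3 lower without DP KO replicate 3 (0.0124). DP WT replicates 1 and 2 nearly lack Xist, and the part of this in any comparison with DP WT was not tested.

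Marker sums of cells outside the T lineage were as follows. The 5 B cell genes summed to 19.9 to 29.2 CPM in CD4 KO, against 5.93 to 16.5 CPM in CD4 WT, and to 20.8 to 26.2 CPM in DP KO, against 15.9 to 20.8 CPM in DP WT. For the 6 myeloid genes the sums were 60.9 to 84.4 CPM in CD4 KO, against 46.8 to 68.2 CPM in CD4 WT, and 68.5 to 79.5 CPM in DP KO, against 64.0 to 78.5 CPM in DP WT. The 7 stromal genes gave 169 to 187 CPM in CD4 KO, against 194 to 215 CPM in CD4 WT, and 169 to 191 CPM in DP KO, against 146 to 150 CPM in DP WT. Erythroid sums differed between batches in every group: in replicates 1, 2 and 3 they were 80.8, 220 and 49.2 CPM in CD4 KO, against 63.4, 138 and 23.4 CPM in CD4 WT, and 217, 331 and 67.9 CPM in DP KO, against 170, 199 and 26.2 CPM in DP WT.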

How the data were processed

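Poly(A) RNA of sorted thymocytes was sequenced as paired reads, per the labels' protocols. Raw read counts for each gene were deposited by the authors in a CD4 and a DP table of 6 libraries each, and libraries were grouped by title. The submitters' processing notes list R 4.1.5, DESeq2, Subread 1.0.1 and the build mm10 without saying what each did. The sources used here name no aligner, strand setting or rule for reads with several matches, so overlapping and duplicated genes are uncertain. Each comparison was fitted over all genes with the edgeR 4.0.16 quasi-likelihood test in R 4.3.3 (TMM scaling, filterByExpr at its defaults). A call means a p under 0.05 after Benjamini-Hochberg adjustment. Adjusted p-values are from this test unless another is named. CPM were scaled by TMM over all 12 libraries and the SE is the log2 fold change over the square root of F. The floor of 3 counts was 0.0464 to 0.134 CPM, counting error only. The fits were tested on simulated data. Figures used matplotlib 3.10.9 in Python 3.11.15.

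The members and lists were chosen with earlier results of these data known. Members were given with every library's value if among the 8 largest called changes of a KO comparison, if first of their group by adjusted p, or if called in opposite directions. Rad21, Lmnb1, Smc2, Hmga1 and the ranges of other members were added beside them after their values were seen, as were the motifs and the ratios. Of other lists, at most 3 genes a comparison were named by adjusted p, with their values in the other stage.

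The alternatives run were limma-voom (limma 3.58.1), the Wald test of DESeq2 1.42.0, its size factors within edgeR, 1 model fitted to 12 libraries, no filter, a filter at a mean count of 10, scaling without the members and cell cycle lists, DP WT replicate 3 as the only control, each library left out, and the replicate number as a block. The labels call that number a batch, so it pairs the libraries. Correlations of same-numbered deviations were -0.00176 to 0.176 in DP KO against WT and 0.12 to 0.34 in CD4 KO against WT. Between the stages they were 0.15 to 0.26 in WT and 0.23 to 0.49 in KO. Differently numbered deviations gave, in the same order, -0.13 to 0.150, -0.25 to 0.178, -0.229 to 0.0563 and -0.431 to 0.214. In DP KO against WT, replicates 1 and 2 correlated more across numbers (0.133 and 0.150) than within them (0.0195 and -0.00176). Every called member had the same sign within all 3 batches, but the calls came from these same libraries. The sign also held in 6 uncalled members in CD4 KO against WT (not in 3) and in 11 in DP KO against WT (not in 18). Between the stages it held in 20 uncalled members in KO (not in 8), while in WT the 4 uncalled members did not keep it. Replicates differed beyond sampling noise (chi-square per degree of freedom 15.4 to 50.9).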

Additional observations from a re-analysis of the deposited data

Results flagged for a closer look

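For 25 members the effect of Satb1 KO in CD4 thymocytes differed from that in DP thymocytes by a test of the difference itself (edgeR, adjusted p under 0.05; values are log2 effect in CD4 minus log2 effect in DP). Among the cohesin ring genes and CTCF the difference was 0.80 for Rad21, 0.50 for Ctcf, 0.49 for Smc1a and 0.44 for Smc3. The cohesin regulators gave 1.90 for Esco2, 1.72 for Cdca5 and 0.36 for Pds5b. In condensin it was 1.75 for Ncaph, 1.73 for Ncapg, 1.67 for Ncapg2, 1.34 for Ncapd2, 0.99 for Smc2, 0.64 for Ncapd3, 0.60 for Ncaph2 and 0.35 for Smc4. The lamina genes gave 1.32 for Lmnb1, 1.07 for Lbr, 0.78 for Banf1, 0.44 for Lmnb2 and -1.75 for Lmna. For the HMG genes it was 1.90 for Hmgb2, 1.55 for Hmgb3, 1.29 for Hmgb1 and 0.80 for Hmga1, and among the looping factors it was -0.48 for Ldb1.

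The difference for Pds5b was the least firm, since it passed without DP KO replicate 3 and was lost without any other single library (adjusted p between 0.0669 and 0.141) and with scaling without the members and cell cycle lists (0.0566). Smc4 lost it without DP KO replicate 1 (0.0525) or 2 (0.0539), and Lmnb2 without DP KO replicate 2, DP WT replicate 2 or CD4 WT replicate 2 (between 0.0522 and 0.0539). The summed G2 and M phase transcripts, given above, differed between the same groups, and their part in these differences was not tested.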

How the results depend on the processing

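No result changed direction while called under the alternatives run. With DP WT replicate 3 as the only control, the calls in DP KO against WT were 1 member higher and 1 lower, and 1089 genes higher and 818 lower over all genes, with the lone control assumed to vary like the DP KO libraries. With each library left out in turn, the members lower in DP KO were 4 to 18. For CD4 against DP in KO, leave-one-out counts were 0 to 1 member higher (edgeR; 2 with all libraries) and 1 to 19 lower, and over all genes 1562 to 2428 higher and 633 to 1523 lower. Without the low-count filter that comparison had 1 member higher and 19 lower.

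With the replicate number as a block (batch pairing), CD4 against DP in KO had 23 members and 2976 genes lower, and the interaction had 4 members lower in place of 2, adding Esco1 (adjusted p = 0.0483) and Smchd1 (0.0385) there and Emd, Stag1 and Pds5a on the positive side. In KO against WT the block changed the calls given beside Lmna, Esco2, Yy1, Stag1, Stag2, Mau2 and Esco1, and it changed no other call of a member. In CD4 against DP in KO it added Rad21, Stag1, Stag2, Nipbl, Wapl, Esco2, Smc2, Ncapg, Ncapd3, Ncapg2, Lmnb2 and Hmgb3. Smchd1 and Syne2 in CD4 KO were lost with 1 model over all 12 libraries. The DESeq2 Wald test also called Hmgb2 lower in DP KO and Mau2 lower in CD4 KO. Without the low-count filter Hmgb2 and Esco2 were called lower in DP KO, Stag1 higher in CD4 KO, and Smchd1 was lost there, and with 1 model Emd was called higher in DP KO. Scaling without the members and cell cycle lists lost the Pds5b interaction (adjusted p = 0.0566). The causes were not tested. With 3 libraries a group, the size of the changes that were called varied with the gene and the comparison. Smchd1 was called at -0.21 on the log2 scale in CD4 KO. In DP KO Ctcf was called at -0.26, while Esco2 was not called at -0.34. Between CD4 KO and DP KO Esco2 was not called at -0.53. A member that was not called may thus still differ.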
